A study of Mus musculus with 32 samples.

Results

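The meiotic chromosome genes are 10 genes, Sycp1, Sycp2, Sycp3, Syce1, Hormad1, Rec8, Stag3, Smc1b, Dmc1 and Msh5, taken by gene symbol from the 27179 genes of a mouse MeDIP-seq table. MeDIP-seq precipitates methylated DNA with an antibody against 5-methylcytosine (5mC) and sequences it, so a higher value on a gene means more precipitated reads there. All 10 were found and all 10 passed the filter on low values. The table has 8 columns, called libraries here, of FFPE brain, frozen brain, FFPE heart, frozen heart, FFPE kidney, frozen kidney, FFPE liver and frozen liver. FFPE tissue was fixed in 10% formalin and embedded in paraffin, and frozen tissue was flash frozen. No source used here gives the strain, genotype, sex or age of the mice, and nothing says that samples came from separate animals. The design sets 5mC of each organ against the others, and FFPE against frozen samples of an organ.

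These genes build and work on chromosomes in meiosis, the division that makes eggs and sperm. Cohesin rings hold sister chromatids together, an axis forms along them, and the synaptonemal complex zips the paired chromosomes while recombination joins them. Many genes of this kind are used in germ cells and are silenced in body tissues, and methylated DNA at CpG-rich promoters is a known part of that silencing in mice. Brain, heart, kidney and liver are body tissues, and RNA was not measured in the values used here.

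Across the libraries 2164158 to 3699218 reads were recovered on genes, and the 10 genes held from 28 reads (Stag3 in frozen liver, a counting SD of 18.9%) to 269 reads (Sycp1 in frozen liver, 6.10%). Genes with 0 reads numbered 880 to 2999 per library. The labelled tissues were checked on marker genes of their main cells, whose own 5mC is often low. In liver 6 of 7 hepatocyte genes were lower (limma adjusted p), against 7.42% of all tested genes. In heart 4 of 6 cardiomyocyte genes were lower, against 1.97%, and in brain 4 of 5 neuronal genes, against 12.8%. Of the oligodendrocyte genes 1 of 3 was lower in brain, with log2 differences from -0.68 to 0.69. In kidney 0 of 5 tubule genes were called in either direction, against 1.46% of all tested genes. Each value is a mix over all cells of an organ, so a different cell makeup and a different 5mC level per cell cannot be told apart.

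The promoters show what the 10 genes share in sequence. In RefSeq windows of GRCm38.p6 that run from 250 bases before to 50 bases after the start, the 10 genes had a median of 19.5 CpGs (10 in Sycp2 to 30 in Stag3), against 7 over all 27025 promoters. Their observed over expected CpG ratio had a median of 0.71, from 0.36 (Sycp2) to 1.08 (Smc1b), against 0.39 over all promoters. CpG-rich promoters are not particular to the 10. The medians were 16.5 CpGs and a ratio of 0.64 in the lists of other meiotic genes, and 36 and 1.01 among somatic counterparts. All promoters with a ratio of at least 0.6 had medians of 25 and 0.83. The letters TCCCGC, of the kind that E2F factors bind, occurred on either strand in 8 of the 10 (80%) and in 20% of all promoters. Among the 9857 promoters with a CpG ratio of at least 0.6 the share was 43.0%. The letters CACGTG, an E-box, occurred in 4 of the 10 (Sycp1, Sycp3, Stag3 and Hormad1) and in 7.24% of all promoters, and these 4 held both motifs, against 2.05% of all promoters. Among the CpG-rich promoters the shares were 11.4% for CACGTG and 4.79% for both. In the lists of other meiotic genes 17 of 30 promoters (56.7%) held TCCCGC and 4 (13.3%) CACGTG, and among somatic counterparts 7 of 8 (87.5%) and 0. Sycp2 and Syce1 held neither. The motifs do not overlap each other in these letters, and each holds 1 CpG, so both are commoner in CpG-rich windows.

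The 250 bases before the start are printed for the 5 genes whose largest organ differences passed the test and whose promoters hold a motif, 5′ to 3′ on the gene's strand, with motif letters in capitals. The TCCCGC match of Sycp1, that of Stag3 and 1 of the 2 of Msh5 reach past the printed stretch and are not shown.
Hormad1 (chr3:95559427-95559676, plus strand): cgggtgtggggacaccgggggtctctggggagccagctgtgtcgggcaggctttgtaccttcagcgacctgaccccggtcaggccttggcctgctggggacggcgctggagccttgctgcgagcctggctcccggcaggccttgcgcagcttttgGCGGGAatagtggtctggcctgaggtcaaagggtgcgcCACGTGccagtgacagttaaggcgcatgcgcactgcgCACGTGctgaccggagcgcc
Sycp1 (chr3:102936101-102936350, minus strand): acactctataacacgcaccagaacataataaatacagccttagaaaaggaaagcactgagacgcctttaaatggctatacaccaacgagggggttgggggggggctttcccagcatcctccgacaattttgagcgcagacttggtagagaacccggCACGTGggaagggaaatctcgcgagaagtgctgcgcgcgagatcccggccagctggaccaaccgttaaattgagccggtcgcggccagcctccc
Stag3 (chr5:138280259-138280508, plus strand): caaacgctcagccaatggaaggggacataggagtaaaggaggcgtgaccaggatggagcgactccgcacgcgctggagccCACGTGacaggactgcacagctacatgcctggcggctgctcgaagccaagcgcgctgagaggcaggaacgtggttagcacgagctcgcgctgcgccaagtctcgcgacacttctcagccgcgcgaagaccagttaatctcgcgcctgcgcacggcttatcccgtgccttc
Smc1b (chr15:85131958-85132207, minus strand): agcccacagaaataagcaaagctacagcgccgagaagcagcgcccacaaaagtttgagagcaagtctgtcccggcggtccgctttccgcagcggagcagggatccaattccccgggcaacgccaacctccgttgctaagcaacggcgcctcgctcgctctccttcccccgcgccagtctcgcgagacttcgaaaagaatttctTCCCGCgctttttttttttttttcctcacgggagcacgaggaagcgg
Msh5 (chr17:35046623-35046872, minus strand): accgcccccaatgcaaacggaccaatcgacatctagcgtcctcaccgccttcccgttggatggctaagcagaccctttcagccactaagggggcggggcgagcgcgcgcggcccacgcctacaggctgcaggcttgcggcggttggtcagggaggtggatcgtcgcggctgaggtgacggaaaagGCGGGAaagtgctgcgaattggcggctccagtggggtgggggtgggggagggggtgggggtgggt
Sycp1, Stag3 and Hormad1 carry CACGTG in the printed bases, Hormad1 at 2 places, and Hormad1, Smc1b and Msh5 carry TCCCGC or its reverse complement GCGGGA. The Stag3 and Msh5 windows lie inside their gene records, that of Stag3 past the overlap with Gpc2. Reads were counted per gene, so none of the values below is the value of these windows.

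The level of a gene grew with its length over all tested genes (Spearman's rho 0.59 across genes, which are not independent), so levels are compared between genes only per kilobase (kb) of gene span. Levels are in CPM, counts per 1e6 reads of a library. Per kb Rec8 stood highest, at a mean of 2.80 CPM per kb over 7.39 kb, followed by Syce1 (2.34), Msh5 (1.74) and Sycp3 (1.49). The median tested gene had 1.42. Hormad1 had 0.98, Stag3 and Sycp2 0.61 each, Sycp1 0.54 over 118 kb, Dmc1 0.43 and Smc1b 0.38. The 4 shortest genes were thus the 4 densest. No source used here says whether exons or whole gene bodies were counted.

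**Figure D1:**
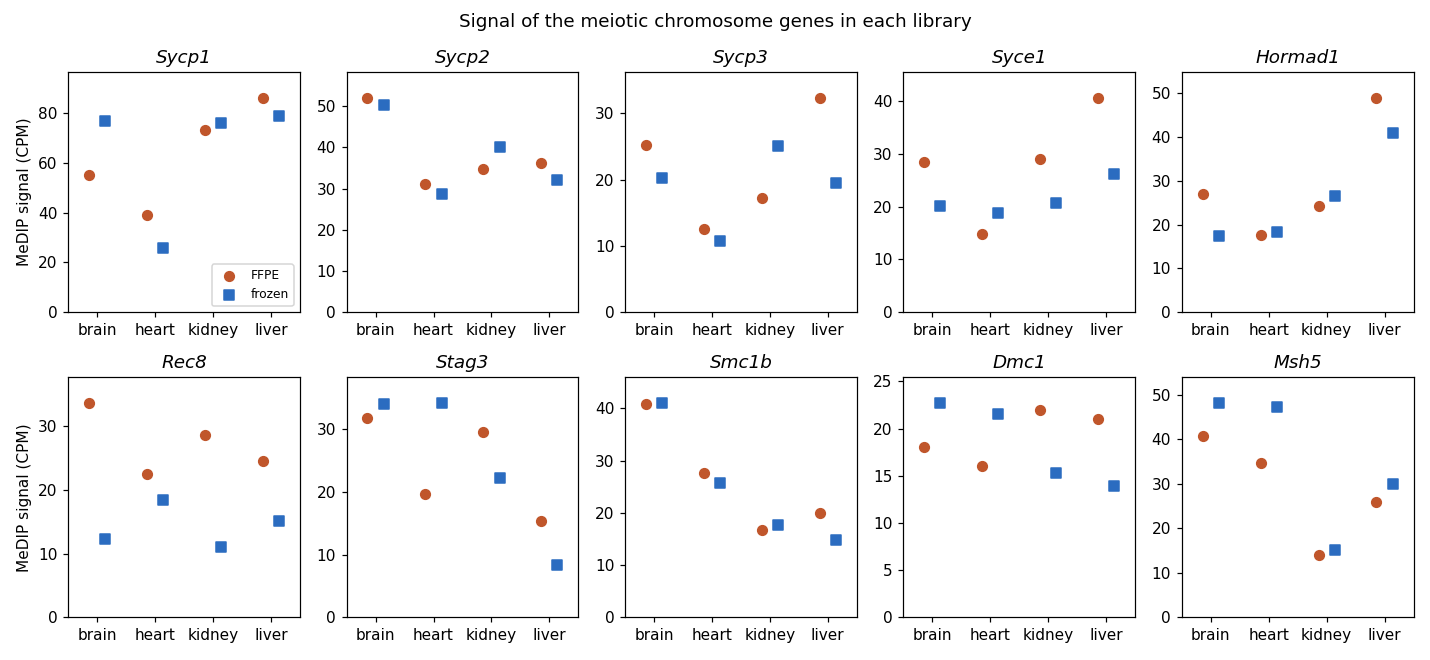
Signal of the 10 genes in CPM (linear axis from 0) in each organ, with FFPE libraries as circles and frozen libraries as squares, 1 library per point. Sycp1, Sycp2, Sycp3 and Syce1 had their lowest 2 values in heart, Msh5 in kidney and Stag3 in liver.

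The transverse filament protein of the synaptonemal complex, which spans the gap between paired chromosomes, is the product of Sycp1 (Entrez 20957, GRCm38.p6 chromosome 3, 102818499 to 102936100). Its signal was 39.1 CPM in FFPE heart and 25.8 CPM in frozen heart, against 55.1 and 76.9 CPM in FFPE and frozen brain, 73.0 and 76.0 CPM in FFPE and frozen kidney and 86.2 and 78.7 CPM in FFPE and frozen liver. Both heart libraries lay below every other library. In the fit of organ plus preservation Sycp1 was 2.32-fold lower in heart than in the mean of the other organs (log2 -1.21 ± 0.20, SE, 2 libraries against 6; limma, Benjamini-Hochberg adjusted p = 0.00677). The difference was -0.84 in FFPE and -1.58 in frozen tissue. Heart differed from brain (adjusted p = 0.0441), kidney (0.0145) and liver (0.00166) in the same fit, while liver, kidney and brain did not differ from their neighbours in the order of levels (0.801 and 0.609).

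Sycp1 was the only one of the 10 called lower in heart, where 1.97% of all 25982 tested genes were lower, 0.162% higher and 2.14% called in either direction, and it lost the call without the FFPE heart library (adjusted p = 0.061) or the frozen heart library (0.53). In heart 2 of 3 endothelial marker genes (median -0.85) and 1 of 3 germ cell marker genes (Dazl, -1.58) were also lower, and their part in the Sycp1 result was not tested. Sycp1 was also called higher in liver, by 0.62 ± 0.20 on the log2 scale (adjusted p = 0.0387). All 8 calls described here and below were lost in a fit without a variance trend, which called 0 genes of the whole table in the organ comparisons. Since each organ is set against the other 3, the low heart values raise the liver difference. The liver call was lost under quantile normalization (0.37, adjusted p = 0.286), and without FFPE brain (0.1), frozen heart (0.11), FFPE liver (0.295) or frozen liver (0.199), given as adjusted p.

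Sycp3, Sycp2 and Syce1, which also encode proteins of the synaptonemal complex, had their lowest values in heart, and none of them passed the test there. Sycp3, a core protein of the lateral elements, had 12.5 and 10.7 CPM in FFPE and frozen heart, against 17.3 to 32.4 CPM in the 6 other libraries (-0.98 ± 0.31, adjusted p = 0.131). Sycp2, its partner in the lateral elements, had 31.2 and 28.6 CPM in heart, with every value elsewhere higher, up to 52.1 CPM (-0.43 ± 0.20, adjusted p = 0.342). Syce1, of the central element where the filaments meet, had 14.9 and 18.8 CPM in heart, against 20.2 to 40.7 CPM elsewhere (-0.68 ± 0.27, adjusted p = 0.246). With Sycp1, 4 of the 10 genes had both heart libraries below all others, and over all tested genes 3.47% had this pattern. Further genes of the complex outside the 10 did not have it. Syce3 had 19.7 and 30.4 CPM in FFPE and frozen heart, against 19.6 CPM in FFPE brain, and Tex12 had 10.5 and 8.95 CPM in FFPE and frozen heart, against 8.13 CPM in frozen brain. Six6os1 and Syce2 had a lower value in FFPE liver than in either heart library. Sycp3 passed the test with array quality weights (adjusted p = 0.0276) and without the FFPE kidney library (0.0131).

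Sycp2 (Entrez 320558, chromosome 2, 178345295 to 178407776) was higher in brain. It had 52.1 and 50.2 CPM in FFPE and frozen brain, against 28.6 to 40.2 CPM in the 6 other libraries, with no overlap, a pattern shared by 16.5% of tested genes. The difference was 1.52-fold (log2 0.61 ± 0.20, limma adjusted p = 0.0432), close to the threshold. The call was lost with libraries centred on their medians (0.42, adjusted p = 0.142) and without any 1 of the brain, heart or liver libraries, with adjusted p from 0.059 (FFPE liver) and 0.0825 (frozen liver) through 0.0834 (FFPE heart) and 0.0959 (frozen heart) to 0.263 (FFPE brain) and 0.332 (frozen brain).

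Sycp3 and Syce1 were not called in any of the 5 comparisons. In liver Syce1 had 40.7 and 26.1 CPM, against 14.9 to 29.1 CPM in the other libraries (0.60 ± 0.27, adjusted p = 0.134), and it passed the test with libraries centred on their medians (adjusted p = 0.0299). Cyp2e1, a cytochrome P450 gene of hepatocytes that lies 2239 bases from Syce1, was lower in liver (-0.92, adjusted p = 0.0149). On the other side of Syce1, Zfp941, a zinc finger gene, was higher in liver (0.53, adjusted p = 0.0456) and lower in brain (-0.76, adjusted p = 0.00753). Chpt1, a phospholipid synthesis gene, overlaps Sycp3 over 3724 bases and was not called in any of the 5 comparisons.

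**Figure D2:**
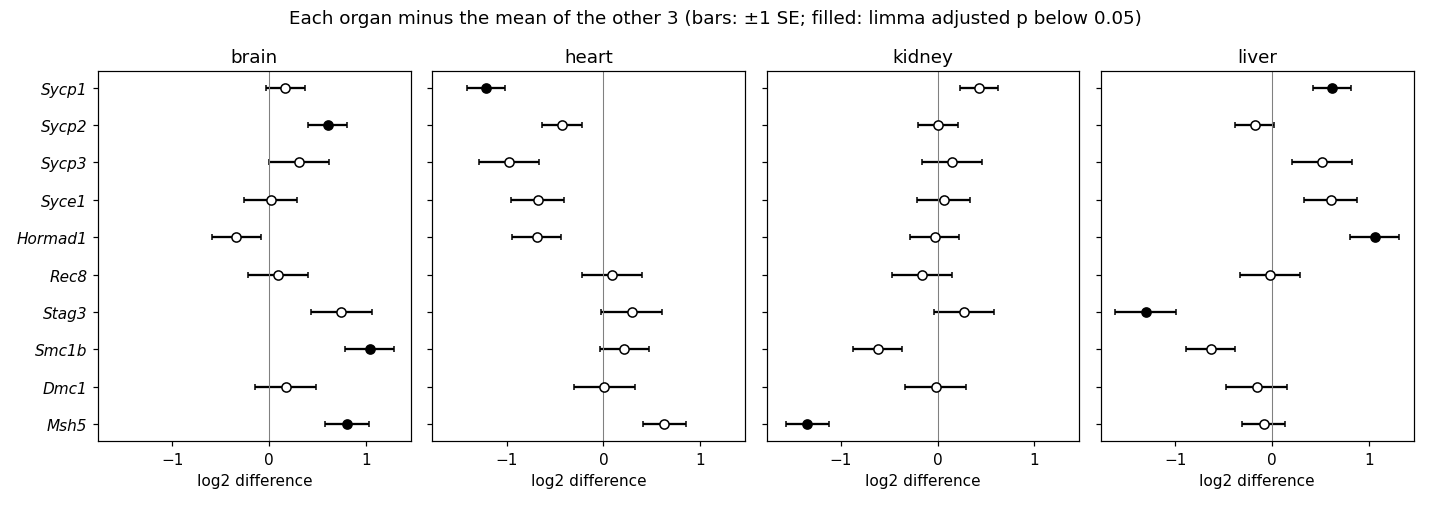
Log2 difference of each of the 10 genes in 1 organ minus the mean of the other 3 organs, with bars of 1 SE on each side, and filled points where the limma adjusted p was below 0.05. Filled points lie at Smc1b, Msh5 and Sycp2 in brain, Sycp1 in heart, Msh5 in kidney, and Hormad1, Sycp1 and Stag3 in liver.

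Hormad1 encodes a HORMA-domain protein that coats chromosome axes that have not yet paired (Entrez 67981, chromosome 3, 95559677 to 95587863). Its signal was 49.1 CPM in FFPE liver and 41.0 CPM in frozen liver, against 17.3 to 27.0 CPM in the other 6 libraries, with the highest of them in FFPE brain. Both liver libraries lay above all others, as they did for Sycp1, a pattern of 11.7% of all tested genes. Liver was 2.09-fold higher than the mean of the other organs (log2 1.06 ± 0.25, limma adjusted p = 0.0082), by 1.11 in FFPE and 1.01 in frozen tissue. Between pairs of organs, liver exceeded heart (adjusted p = 0.0112) and brain (0.0189), and its difference from kidney, next in order, did not pass (0.178). Without the FFPE or the frozen liver library the adjusted p was 0.143 or 0.0984. Its neighbours Ctss, 3272 bases away, and Golph3l, 1052 bases away, were not called in liver.

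The cohesin genes differed from each other. Stag3, a meiotic subunit of the cohesin ring (Entrez 50878, chromosome 5, 138272514 to 138312397), had 15.3 CPM in FFPE liver and 8.32 CPM in frozen liver, against 31.8 and 34.0 CPM in FFPE and frozen brain, 19.7 and 34.2 CPM in FFPE and frozen heart, and 29.5 and 22.3 CPM in FFPE and frozen kidney. Both liver libraries were below all others, as for 10.3% of tested genes. Liver was 2.48-fold lower (log2 -1.31 ± 0.31, limma adjusted p = 0.00842), with -0.78 in FFPE and -1.83 in frozen tissue. Without the frozen liver library the difference was -0.78 (adjusted p = 0.265). In liver 19.2% of all tested genes were called, 11.8% higher and 7.42% lower, beside 2 higher (Hormad1 and Sycp1) and 1 lower (Stag3) of the 10. Endothelial marker genes (2 of 3, median 0.62) and cardiomyocyte ones (4 of 6, median 0.48) were also higher in liver, neuronal ones higher at 2 of 5 (median 0.30), leukocyte ones lower at 1 of 3 (median -1.07), and germ cell ones higher at 1 and lower at 1 of 3. Their part in these results was not tested.

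The 5′ part of the Stag3 gene record overlaps Gpc2, a cell surface proteoglycan gene, over 6370 bases and Gal3st4, a sulfotransferase gene, over 544 bases. No source used here says how shared reads were counted. Gal3st4 moved the other way in liver (0.79, adjusted p = 0.00848) and was lower in brain (-0.64, adjusted p = 0.025). Gpc2 was higher in heart (1.14, adjusted p = 0.0246) and lower in brain (-0.80, adjusted p = 0.0296), where Stag3 had a difference of 0.75 ± 0.31 (adjusted p = 0.0974). Stag3 passed the test in brain with array quality weights and without the FFPE kidney library (lowest adjusted p = 0.0396).

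Smc1b encodes the meiotic form of the SMC1 arm of cohesin (Entrez 140557, chromosome 15, 85064689 to 85131957). It had 40.8 CPM in FFPE brain and 41.1 CPM in frozen brain, against 27.6 and 25.8 CPM in FFPE and frozen heart, 16.8 and 17.8 CPM in FFPE and frozen kidney, and 19.9 and 14.8 CPM in FFPE and frozen liver. The libraries of each organ lay close together, with brain above all others and heart next. Brain was 2.06-fold higher than the mean of the other organs (log2 1.04 ± 0.25, limma adjusted p = 0.00967), and it exceeded kidney (adjusted p = 0.0152) and liver (0.00719) as pairs. Brain and heart (0.316) and heart and kidney (0.302), neighbours in the order, did not differ beyond the spread. Without the FFPE or the frozen brain library the adjusted p was 0.103 or 0.227. In liver the difference of -0.64 (adjusted p = 0.0938) passed the test without the FFPE kidney library (adjusted p = 0.0427).

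Smc1b shares 52892 bases with Fam118a, which was not called in any of the 5 comparisons, so reads of that stretch could belong to either gene. Gm10923, a pseudogene of 524 bases that lies wholly inside Smc1b, was not called in any of the 5 comparisons either. It held 129 reads in frozen kidney and 80 in frozen liver, where Smc1b held 58 and 50. Reads of Gm10923 were thus not all counted for Smc1b, although its value per kb uses the whole span. Ribc2, which lies 103 bases from the other end of Smc1b, had a brain difference of 0.76 (adjusted p = 0.101) and a kidney difference of -0.89 (adjusted p = 0.152). The third cohesin gene, Rec8, the meiotic kleisin that closes the ring, had organ differences from -0.16 (kidney) to 0.09 (brain and heart), none of which passed the test. Ipo4, an import receptor gene that lies 5 bases from Rec8, was lower in brain (-0.61, adjusted p = 0.00761) and higher in liver (0.53, adjusted p = 0.0167).

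Msh5 encodes a MutS homolog that with Msh4 steadies the joints from which crossovers form (Entrez 17687, chromosome 17, 35028605 to 35046997). Its signal was 13.9 CPM in FFPE kidney and 15.0 CPM in frozen kidney, against 40.8 and 48.1 CPM in FFPE and frozen brain, 34.7 and 47.2 CPM in FFPE and frozen heart, and 26.0 and 29.9 CPM in FFPE and frozen liver. The kidney values lay well below the rest, and FFPE brain fell inside the range of heart. Kidney was 2.55-fold lower than the mean of the other organs (log2 -1.35 ± 0.23, limma adjusted p = 0.0105), by 1.25 in FFPE and 1.44 in frozen tissue on the log2 scale. Brain was 1.75-fold higher (0.80 ± 0.23, adjusted p = 0.0198), and part of that difference comes from the low kidney values. As pairs, kidney was below brain (adjusted p = 0.00203) and heart (0.0108), and its difference from liver did not pass (0.0859).

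Msh5 was the only one of the 10 called in kidney, where 1.46% of tested genes were called, 0.566% lower and 0.897% higher, and where 4.38% had both kidney libraries below all others. The kidney call was lost without frozen kidney (-1.25, adjusted p = 0.0568) or frozen heart (-1.30, adjusted p = 0.0849) and with array quality weights (adjusted p = 0.0574). The brain call was lost without FFPE brain (adjusted p = 0.182), frozen brain (0.256) or FFPE heart (0.0663) and with centred libraries (0.0552). Clic1, 3246 bases away, and Sapcd1, 48 bases away, were not called. Sapcd1 held only 0 reads (FFPE liver) to 16 reads (frozen brain), with an SE of 0.94, so a change there could hardly be called. In brain 3 of the 10 genes were called higher (Smc1b, Msh5 and Sycp2) and 0 lower, where 21.4% of all tested genes were called, 8.61% higher and 12.8% lower (4 of the 10 at an unadjusted p under 0.05, against 36.7% of tested genes). In brain 1 of 3 leukocyte marker genes (median 0.93), 1 of 3 endothelial ones (median 0.03) and 4 of 7 hepatocyte ones (median 0.80) were also higher, and their part in these results was not tested.

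Dmc1, a recombinase that works in meiosis, was the most even of the 10. Its values ran from 13.9 CPM in frozen liver to 22.7 CPM in frozen brain, a ratio of 1.64 between the highest and lowest library, against 1.82 (Sycp2) to 4.11 (Stag3) for the 9 others. Organ differences ran from -0.16 (liver) to 0.17 (brain), each with an SE of 0.32, and no pair of organs next to each other in its order differed beyond the spread. Dmc1 had 40 to 61 reads per library, and changes well above that error could also go uncalled. With an SE of 0.31, Sycp3 in heart was not called at -0.98 (limma adjusted p = 0.131).

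None of the 10 genes passed the test between FFPE and frozen tissue. The count of calls was 0 of 10 by limma, where 1.35% of all tested genes were called, and 1 of 10 at an unadjusted p under 0.05, against 10.7% of all tested genes. That gene was Rec8 (Entrez 56739, chromosome 14, 55618002 to 55625395). It had 33.6, 22.4, 28.6 and 24.4 CPM in FFPE brain, heart, kidney and liver, against 12.3, 18.4, 11.1 and 15.0 CPM in frozen brain, heart, kidney and liver. All 4 FFPE values lay above all 4 frozen values, as they did for 1.31% of tested genes. The difference was 1.93-fold (log2 0.95 ± 0.27, adjusted p = 0.128), with 1.45 in brain, 0.28 in heart, 1.37 in kidney and 0.70 in liver, higher in 4 of 4 organs. The frozen brain and frozen kidney values rest on 29 and 36 reads.

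The remaining 9 genes had preservation differences from -0.25 (Msh5, lower in FFPE in 4 of 4 organs, adjusted p = 0.704) to 0.32 (Syce1, adjusted p = 0.68). Besides Rec8 and Msh5, each of the 8 others had organs on either side of 0. For Stag3 the differences were -0.10 in brain, -0.80 in heart, 0.40 in kidney and 0.88 in liver.

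**Figure D3:**
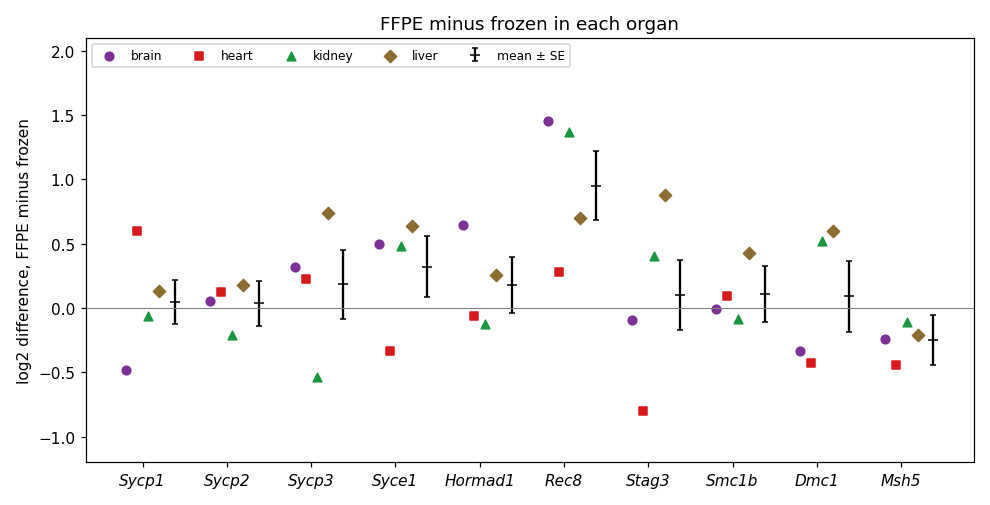
Log2 difference of FFPE minus frozen tissue for each of the 10 genes, with 1 symbol per organ and the mean over organs with 1 SE on each side at the right of each group. The 4 organs of Rec8 all lie above 0, from 0.28 in heart to 1.45 in brain, and the organs of Stag3 spread from -0.80 to 0.88.

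Between pairs of organs, liver against heart and heart against kidney each called 2 of the 10 genes, against 12.1% and 2.47% of all tested genes. Brain against liver called 3 (28.5% of tested genes), brain against kidney 2 (16.1%), brain against heart 1 (1.71%) and kidney against liver 0 (1.9%). These pairs share libraries with each other.

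The 10 genes did not share 1 profile over the libraries. Of their 45 pairs 27 had a positive Pearson's r over the 8 libraries, with a median of 0.16 and a range from -0.72 to 0.83; these values are a description. Each gene's r with the mean of the other 9 ran from -0.07 (Msh5) to 0.69 (Sycp2). Among 21544 other named genes the profiles closest to the mean of the 10 were those of Tex9 (r = 0.94), Trim61 (0.94), Ttf2 (0.93), Slc26a9 (0.92) and Ssxb3 (0.92). They were picked as the highest of that many r values over 8 libraries, so high values were bound to appear. A link of these genes to the 10 was not tested.

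The 10 genes were called 8 times, in 6 genes, and 20 tests of overlapping or nearest genes stand beside these calls. None of the 20 was called in the same direction, where 0.566% to 11.8% of all tested genes were, depending on the organ and direction, so a count near 0 is close to the background. In 1 case, Stag3 in liver, a neighbour was called the other way. The annotation lists 30 such neighbours of the 10 genes, of which 25 were in the table and tested and 5 were not analysed here.

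Other meiotic genes were set beside the 10 from lists by role, 41 of 43 listed genes measured and all 41 tested. In brain 10 were higher and 2 lower, with a median log2 difference of 0.29, against 8.61% and 12.8% of all tested genes and a median of 0.11. The 10 meiotic chromosome genes had a median of 0.24 in brain. Fewer of the 41 were called without the FFPE or the frozen brain library, which leaves 1 brain library and fewer degrees of freedom. The share of all tested genes called in those fits is not given here. A drop in these genes thus cannot be told from a drop over the whole table. Somatic counterparts, which serve cohesin, recombination and mismatch repair in all cells, had a median of -0.26 in brain, with 0 of 12 higher and 1 lower (Msh6, a mismatch repair gene, -0.86).

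In the list of the synaptonemal complex and axis 2 of 6 genes were higher in brain and 1 was lower. Six6os1, of the central element, had 23.4 and 24.4 CPM in FFPE and frozen brain, against 3.60 to 7.74 CPM elsewhere (2.05 ± 0.47, limma adjusted p = 0.00637). Rad21l, a second meiotic kleisin, had 10.0 and 16.0 CPM in brain, against 1.18 to 3.69 CPM elsewhere (2.36 ± 0.64, adjusted p = 0.017), which is 2 to 11 reads per library outside brain. Syce3, of the central element, was lower in brain (-0.84, adjusted p = 0.0238).

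Among 24 genes of double strand break formation and repair, brain was higher at 6 and lower at 0. The 4 with the smallest p were Tex15 (1.27 ± 0.24, adjusted p = 0.00177), Shoc1, of crossover formation (1.02, 0.00325), Hfm1, a crossover helicase (1.18, 0.00563), and Mei4, needed for break formation (1.08, 0.0114). In liver 3 of the 24 were lower, namely Iho1, a partner of Mei4 in break formation (-1.37, adjusted p = 0.00184), Mei4 (-1.09) and Hfm1 (-1.02), and 1 was higher, Hsf2bp, a partner of Brca2 (0.86, 0.00159). Hsf2bp was also the only gene of the 41 called in heart (-0.80, adjusted p = 0.0158), where 2.14% of all tested genes were called. Hfm1 in frozen kidney reached 73.0 CPM, inside the brain range of 71.8 to 73.2 CPM.

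Among 6 genes that tie telomeres to the nuclear envelope, brain was higher at 2 and lower at 1. Terb1, of the telomere attachment complex, had 29.7 and 39.8 CPM in FFPE and frozen brain, against 5.40 to 16.0 CPM elsewhere (1.88 ± 0.38, adjusted p = 0.00296), and was lower in liver (-1.66, adjusted p = 0.00583). Kash5, which links telomeres to dynein, was higher in brain (1.35, adjusted p = 0.0204) and Sun1, an envelope protein used in many cell types, lower (-0.76, 0.0114). Among centromere and meiotic entry genes 0 of 5 were called in any of the 5 comparisons. In liver 4 of the 41 genes were lower and 1 higher in all, against 7.42% and 11.8% of all tested genes. Fewer of the 41 were called in liver without the FFPE or the frozen liver library, and more without FFPE kidney. For these fits too the share of all tested genes is not given here.

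**Figure D4:**
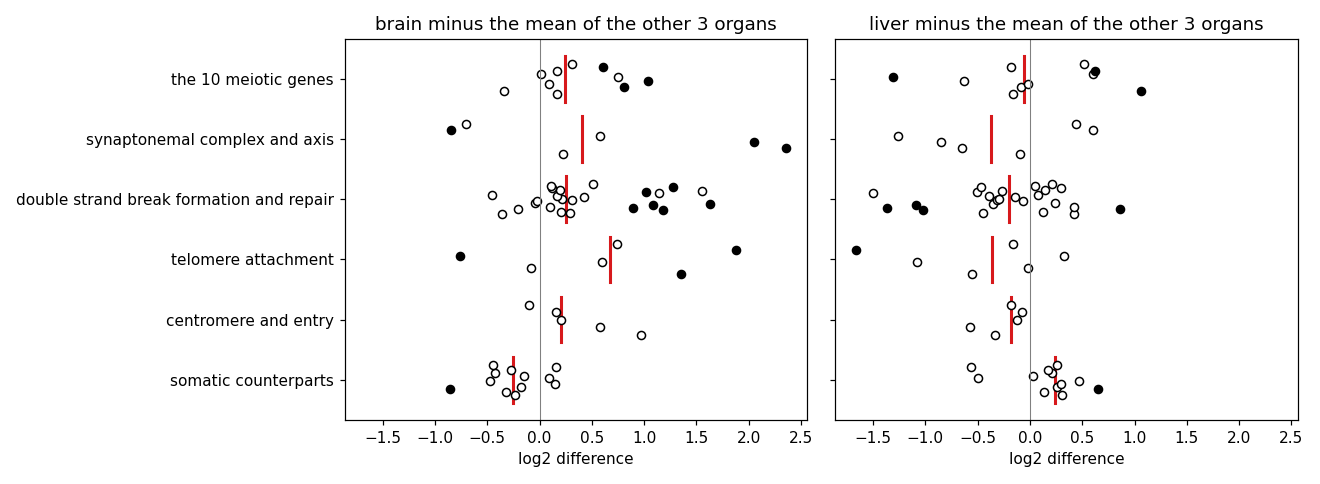
Log2 difference of each gene of the meiotic lists and of their somatic counterparts in brain (left) and liver (right) against the mean of the other 3 organs. Points are genes, filled where the limma adjusted p was below 0.05, and red lines are medians, which in brain lie at 0.24 for the 10 meiotic genes and -0.26 for the somatic counterparts.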

How the data were processed

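MeDIP-seq was done on 4 organs in 2 preservations. The labels list 32 samples in 16 groups of 2, antibody precipitate (16) or Input (16). The submitters' processing notes name mm10, Bowtie2, featureCounts and limma, with no versions; no source used here gives the counted feature or strand. The deposited values are log2 CPM, 1 column per organ and preservation. Columns name neither antibody nor replicate and were read as 5mC from the table's name. No source used here says whether a column pools replicates. The sample descriptions give 2 library dates, and date was not part of the fit. Input was not analysed here, so copy number and DNA yield also shape the values.

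With 0.5 added per count, as limma's voom does, all values stepped back to whole reads (tolerance 0.0001), used for depth. A limma fit (R 4.3.3, limma 3.58.1) of organ plus preservation, with a variance trend, used 25982 genes that reached 1 CPM in 2 or more libraries. It leaves 3 residual degrees of freedom, and limma draws the error of each gene toward the variance trend over all genes (13.1 prior degrees of freedom). Each SE and p-value thus rests more on that trend than on the gene's own values. The gene's own part is the change of organ differences with preservation and not a spread of replicates. P-values were Benjamini-Hochberg adjusted over all tested genes within each comparison, at 0.05. The fit was run on simulated data with independent normal noise and changes planted in heart only. That run checks the code and cannot show that the p-values of these libraries are right. Log2 differences and fold changes are on the log2 CPM scale, 0.5 added per count. Genes and promoters were matched by Entrez ID to RefSeq GRCm38.p6 (25275 of 27179 genes, 10 of the 10 promoters, 30 of 41 and 8 of 12 promoters in the other lists). The members, lists and alternatives were chosen with earlier results of these data known. Named genes are the 10 members, up to 4 called genes with the smallest p per list and comparison, overlapping or called neighbours (and others beside a called member, added after their values were seen), and the 5 closest profiles. No source used here says that samples are separate animals, so p-values measure only the spread between these libraries.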

Additional observations from a re-analysis of the deposited data

How the results depend on the processing

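Of the 8 calls of the 10 genes, none changed sign under any of the 15 alternatives. Over the 7 settings on all libraries 44 of 56 values kept their call and 12 lost it, and over the libraries left out in turn 42 of 64 kept it. The count of called genes of the 10 was 3 in brain, 1 in heart, 1 in kidney, 3 in liver and 0 between FFPE and frozen. It was 0 in each of the 4 organs without a variance trend, a setting that called 0% of all tested genes in those comparisons. It was 1 in brain with centred libraries, and with array quality weights 2 in heart, 0 in kidney and 4 in brain. Calls were added for Stag3 in brain (array quality weights, and without FFPE kidney), Sycp3 in heart (the same), Syce1 in liver (centred libraries) and Smc1b in liver (without FFPE kidney). Leaving out 1 library moved the count up or down in brain, heart and liver, only down in kidney, and left it at 0 for FFPE minus frozen. The share of all tested genes called with array quality weights, centred libraries or 1 library left out is not given here. A change in the 10 thus cannot be told from a change over the whole table. Centring moved the median of all tested genes from 0.11 to -0.07 in brain and from -0.10 to 0.15 in liver. The cause of the changes was not tested, other than that fewer libraries leave fewer degrees of freedom. No paired analysis was possible because the columns carry no replicate number. Depth limits the genes with fewest reads.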
